A study of Mus musculus with 6 samples.

Results

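MicroRNAs (miRNAs) are numbered in the order in which they entered the public registry, and mouse miRNAs numbered 6000 and above are among the later entries. They were selected here by name alone: every mature reference called mmu-miR- with a number of at least 6000, whatever its letter or arm. In all, 305 of the 911 mature references with reads in the series met this rule, with numbers from 6236 to 9769 and no joint entry of several names among them. For comparison stood 167 references of intermediate number (at least 1000 and under 6000) and 439 of low number (under 1000, with let-7). Small RNA was sequenced from macrophages grown out of bone marrow, with 3 biological replicates from ApoE-KO mice (EKO) and 3 from wild-type mice (WT), to compare their miRNAs. The apolipoprotein ApoE carries lipid out of macrophages and through plasma. All mice were age-matched males of 6 to 12 weeks. Both genotypes were grown alike, in DMEM with 10% fetal bovine serum and recombinant murine M-CSF at 25 ng/mL, given at intervals of 2 days over 6 days. The EKO label names a whole-animal genotype, and the counts do not include Apoe mRNA, so no value here checks it.

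Most miRNAs are cut from a hairpin in a longer transcript by the nuclear enzyme Drosha, and then by Dicer into a duplex of a 5p and a 3p arm. Mirtrons take another route. Their hairpin is a short intron, or one end of an intron, that splicing frees without Drosha. The 5p arm of a classical mirtron begins at the splice donor, and the 3p arm ends at the splice acceptor, which closes introns with AG. In a tailed mirtron the hairpin holds 1 end of the intron, and the rest is trimmed away. Many late-numbered mouse miRNAs were registered as mirtrons from deep sequencing, and most have no established target or function.

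The mature sequences of the most abundant late-numbered miRNAs are shown first, since the levels below turn on them. Each runs 5′ to 3′ from the RefSeq table of build GRCm38.p6, with the seed (bases 2 to 8) in capitals.
miR-7043-3p: aCUGUGCCucucuguuuucag
miR-8103: uCUCCUGUucucuguucuccc
miR-7688-5p: uAGCUGGGcaugaucugaugagc
miR-7091-3p: aGUGGCUUcugucgucucuag
miR-6988-3p: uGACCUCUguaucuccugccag
miR-7658-5p: uGUGGGCGuggcggugcugg
miR-8114: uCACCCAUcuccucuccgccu
miR-6945-3p: uCUGAGCUcugcccuucccau
miR-7679-5p: aGGCUGGCaccaggaucccu
The other abundant ones are miR-6979-3p, miR-6956-3p and miR-6952-3p. No seed recurred among the sequences printed here. Of the 264 late-numbered miRNAs with a RefSeq sequence, 18 shared a seed with another of them, with 255 distinct seeds in all. A seed found in a reference below 1000 occurred in 6 of them. Among these were miR-7670-3p, which shares its seed with miR-204-5p, and miR-6921-5p, which shares its seed with miR-423-5p.

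Most hairpins of these miRNAs sat at the end of an intron. RefSeq coordinates were set against same-strand introns of GENCODE M21, which uses the same GRCm38 assembly, and an end within 5 bases was taken as flush. Of 181 placed hairpins with reads, 117 (64.6%) were flush with the 3′ end of an intron and 7 (3.87%) filled a whole intron. The 2 classes together made up 54 of 62 hairpins (87.1%) numbered from 6500 to below 7000 and 69 of 75 (92.0%) numbered from 7000 to below 7500. They made up only 1 of 41 (2.44%) numbered 7500 and above, and none of the 3 placed below 6500. The same held for 12 of 112 hairpins (10.7%) of intermediate number and 2 of 225 (0.889%) below 1000. These shares describe where the registered hairpins lie and do not depend on genotype.

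**Figure D1:**
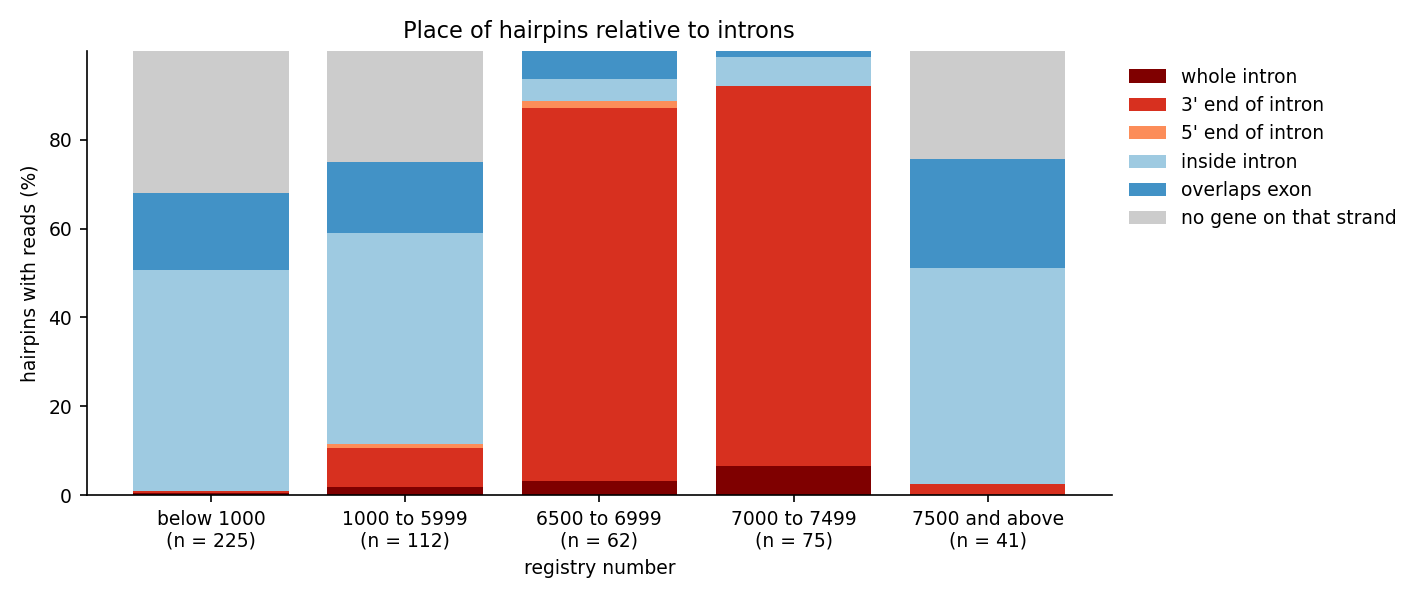
Share of hairpins with reads (y axis, percent) by their place relative to same-strand introns, for 5 ranges of registry number (x axis, n hairpins below each bar). The 2 bars from 6500 to below 7500 are almost filled by hairpins at the 3′ end of an intron, and the bars on either side are not; the 3 late-numbered hairpins below 6500, all inside introns, are not drawn.

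A set of 3 hairpins shows the arrangement, with the mature sequence that held most reads in capitals and their GRCm38.p6 positions. The miR-7091 hairpin (chrX:74274027-74274105, minus strand) is a whole intron of 79 bases in Dnase1l1, a DNase I family gene, from its first to its last base. The miR-7043 hairpin (chr6:116645978-116646047, minus strand) is the last stretch of an intron of 1589 bases in Rassf4, a Ras-association domain gene, and the miR-6988 hairpin (chr19:6051334-6051392, plus strand) the last stretch of an intron of 82 bases in Syvn1, a ubiquitin ligase of the endoplasmic reticulum.
miR-7091: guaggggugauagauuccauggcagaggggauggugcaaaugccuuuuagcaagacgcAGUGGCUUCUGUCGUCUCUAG
miR-7043: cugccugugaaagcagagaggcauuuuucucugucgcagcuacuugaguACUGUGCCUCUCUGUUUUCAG
miR-6988: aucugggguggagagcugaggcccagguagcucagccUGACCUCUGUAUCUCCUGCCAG
All 3 close on AG, the splice acceptor, and in the miR-7091 hairpin the 5p arm opens on GU, the splice donor.

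The letters of the mature sequences were compared between late, intermediate and low numbers, and not by range within the late numbers. Since introns close with AG, a 3p sequence that ends with its intron also ends in AG, so the letters are not separate evidence. Of 125 late-numbered 3p sequences, 83 (66.4%) ended in AG, against 12 of 49 (24.5%) of intermediate number and 10 of 169 (5.92%) below 1000. Late-numbered 3p sequences were rich in C and U (median 71.4%, against 54.5% below 1000), as the stretch before a splice acceptor is, and the 5p sequences were poor in them (median 34.9%, against 50% below 1000). Only 9 of 116 late-numbered 5p sequences (7.76%) began with G. The median GC content of all late-numbered sequences was 56.5%, against 47.6% below 1000, and the median length was 22 bases, as below 1000.

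The other abundant miRNAs lay in varied places. The miR-6945 hairpin (chr13:55507625-55507692, minus strand) is also at the 3′ end of an intron of Pdlim7, which encodes a scaffold protein of the actin cytoskeleton. The miR-8103 hairpin (chr11:97063768-97063874, plus strand) is deep inside an intron of Osbpl7, an oxysterol-binding protein family gene, 1714 bases from the acceptor. The miR-7679 hairpin (chr11:82985003-82985065, minus strand) is inside an intron of Slfn9, a Schlafen family gene. The miR-7658 hairpin (chr4:156230059-156230115, minus strand) overlaps an exon of Plekhn1, and the miR-8114 hairpin (chr1:153899926-153900036, plus strand) an exon of Glul, the glutamine synthetase gene. A fragment of the host mRNA and a processed miRNA cannot be told apart there from these counts. The miR-7688 hairpin (chr10:93433107-93433162, plus strand) has no annotated same-strand gene.

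Late-numbered miRNAs were a small share of the reads, and a few carried most of it. Levels are CPM, the estimated read count per 1000000 reads on mature miRNAs of the library. Library totals ran from 34651516 to 41331600 reads. The limit that counting error alone allows for a count of 0, 3 reads, thus stands for at most 0.0866 CPM. The 305 miRNAs together took 0.0672% to 0.127% of a library's reads. Their median level over the 6 libraries was 0.501 CPM, against 1.12 CPM for intermediate numbers and 9.13 CPM below 1000. An average of at least 10 CPM was reached by 12 (3.93%), at least 1 CPM by 98 (32.1%), and 45 averaged under 0.1 CPM. The 12 most abundant held 53.1% to 70.5% of the reads on late-numbered miRNAs. Adapter ligation works better on some sequences than on others, so levels of different miRNAs are not on 1 scale.

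The most abundant, miR-7043-3p, ranked 101 among all 911 mature references. It stood at 310, 259 and 259 CPM in the EKO libraries and 191, 175 and 143 CPM in the WT libraries, from 5863 to 10750 reads of 168 to 229 distinct sequences per library. Next came miR-8103, at 208, 94.6 and 118 CPM in EKO and 61.2, 57.4 and 42.3 CPM in WT. The level of miR-7688-5p was 144, 119 and 82.0 CPM in EKO and 61.2, 67.8 and 57.7 CPM in WT. For these 3 miRNAs every EKO library lay above every WT library, and EKO replicate 1 was the highest.

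The fourth, miR-6979-3p, stood at 56.9, 74.3 and 31.0 CPM in EKO and 26.9, 24.5 and 18.7 CPM in WT. Of similar rank, miR-7091-3p stood at 22.5, 27.6 and 21.6 CPM in EKO and 28.5, 19.4 and 19.5 CPM in WT. The level of miR-6988-3p was 31.1, 23.2 and 18.8 CPM in EKO and 17.5, 25.2 and 18.4 CPM in WT. The groups were apart for miR-6979-3p and overlapped for the other 2, although all 3 are 3p arms and the latter 2 end at a splice acceptor.

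The exon-overlapping miR-7658-5p stood at 52.7, 30.0 and 17.4 CPM in EKO and 8.72, 9.44 and 9.92 CPM in WT. Its spread was wide in EKO, with a coefficient of variation of 53.6%, and narrow in WT, at 6.50%. The opposite held for miR-6945-3p, at 18.4, 20.6 and 19.7 CPM in EKO (5.65%) and 5.41, 8.37 and 8.87 CPM in WT (24.8%). The groups did not overlap for either.

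The level of miR-8114 was 10.9, 11.8 and 23.5 CPM in EKO and 14.8, 10.0 and 17.7 CPM in WT. That of miR-6956-3p was 12.9, 14.6 and 14.5 CPM in EKO and 8.64, 8.44 and 4.47 CPM in WT. The last of the 12, miR-7679-5p and miR-6952-3p, ranged from 5.57 to 15.8 CPM and from 4.76 to 22.4 CPM in EKO, and from 7.14 to 11.1 CPM and from 5.06 to 10.1 CPM in WT. Of these 4, only miR-6956-3p had groups that did not overlap.

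**Figure D2:**
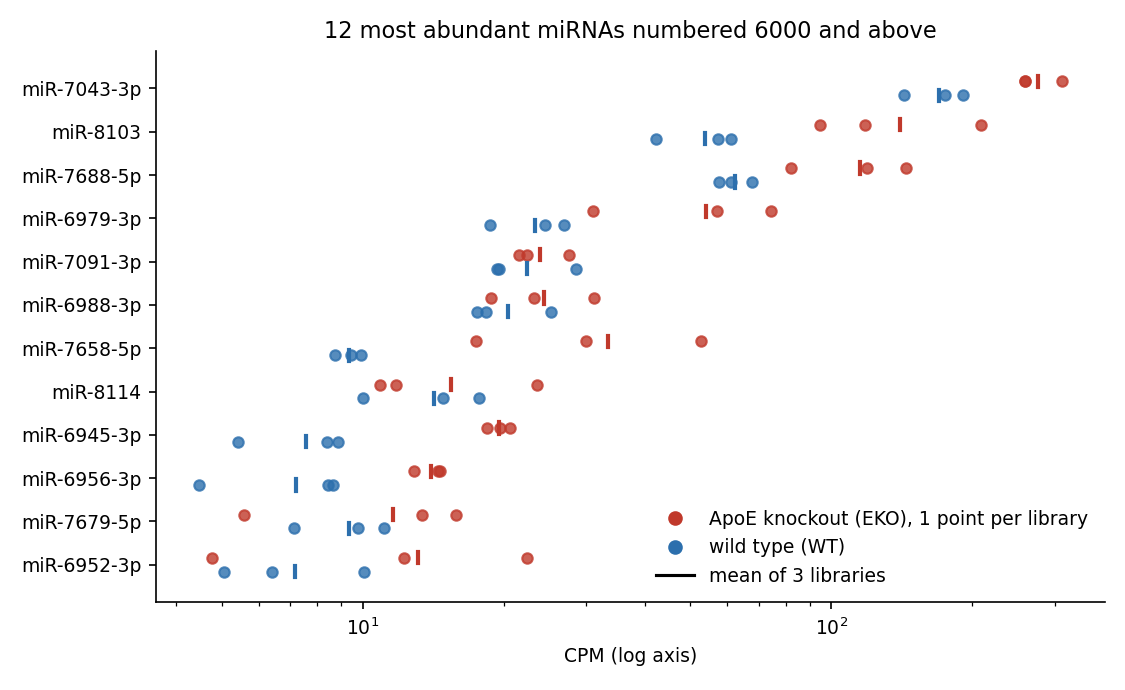
Level of the 12 most abundant late-numbered miRNAs in each library (x axis, CPM on a log axis), 3 EKO points in red and 3 WT points in blue for each, with a bar at each mean. For 7 of the 12 all red points lie to the right of all blue points, and for the other 5 they overlap. Of all 251 references averaging at least 10 CPM, as these 12 do, 46 (18.3%) had every EKO value above every WT value. That limit uses the mean of both genotypes, so the count is partly set by it and supports nothing about the group.

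At the edge of the rule, the lowest-numbered reference selected, miR-6236, averaged 0.0248 CPM and the next, miR-6390, 3.63 CPM. The highest-numbered ones left out, miR-5627-3p and miR-5626-3p, averaged 0.337 and 0.126 CPM.

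Fewer late-numbered miRNAs were detected in EKO than in WT macrophages, while their summed level was higher in EKO. At least 1 read was found for 126, 136 and 130 of the 305 in the EKO libraries and for 187, 176 and 188 in the WT libraries (130.7 ± 5.03 against 183.7 ± 6.66, SD, n = 3 each). The summed level was 1267, 1057 and 999.6 CPM in EKO and 789, 712 and 672 CPM in WT (1108 ± 141 against 725 ± 59.5 CPM, SD, n = 3 each), a ratio of 1.53. The groups overlapped in neither measure, and no p was computed for counts or sums over chosen miRNAs. Where a late-numbered miRNA was detected, its median count was 96, 104 and 98 reads in EKO and 56, 50.5 and 49 reads in WT. Those with at least 100 reads numbered 62, 72 and 62 in EKO and 51, 52 and 52 in WT, whereas those with at least 10 reads numbered 112, 116 and 116 in EKO and 166, 152 and 164 in WT.

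The lower detection in EKO was not limited to late numbers. References of intermediate number were detected at 100.3 ± 8.08 in EKO and 123 ± 7.55 in WT, with summed levels of 16111 ± 1706 and 11386 ± 662 CPM (SD, n = 3 each). Below 1000, 339 ± 14.2 were detected in EKO and 374 ± 3.21 in WT, with 982781 ± 1842 and 987890 ± 722 CPM. Library totals overlapped between genotypes: EKO replicate 2, at 39532548 reads, was deeper than WT replicate 1, at 38440296 reads, and had 136 detected against 187. No molecular identifiers were counted, so reads are not independent molecules and the floors cover counting error only.

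Detection was patchy within a genotype as well. Only 57 of the 305 (18.7%) had reads in all 6 libraries, and 92 (30.2%) in 1 library, with a median of 28 reads there and at most 195. Reads in WT libraries alone were found for 105 (34.4%), against 21.3% of all 911 mature references. Reads in EKO libraries alone were found for 31 (10.2%), against 5.38% of all.

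**Figure D3:**
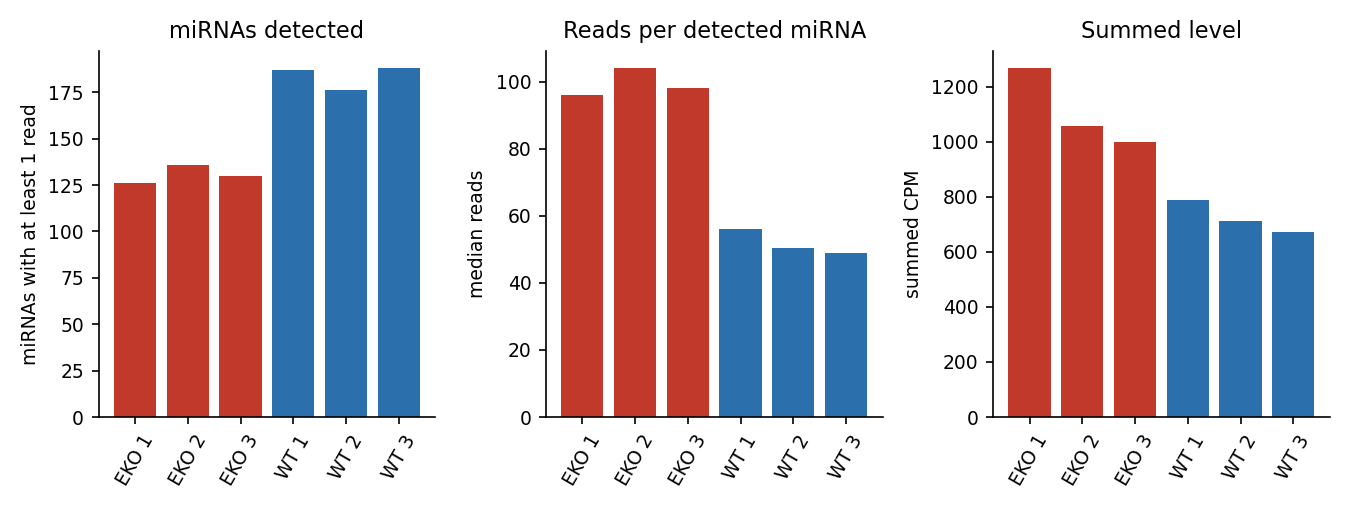
Number of the 305 late-numbered miRNAs with at least 1 read, their median reads where detected and summed level in CPM (y axes, left to right), 1 bar per library (EKO red, WT blue). EKO libraries lie lower in the number detected (126 to 136 against 176 to 188) and higher in summed level (999.6 to 1267 against 672 to 789 CPM).

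The higher sum in EKO lay mostly in the abundant miRNAs. The 3 most abundant made up 52.3%, 44.7% and 45.9% of the reads on late-numbered miRNAs in the EKO libraries and 39.8%, 42.1% and 36.2% in the WT libraries. Without these 3 the sums were 604, 585 and 541 CPM in EKO and 476, 412 and 429 CPM in WT. Without the 12 most abundant they were 373, 372 and 356 CPM in EKO and 344, 295 and 315 CPM in WT, which still did not overlap. By number, the sums in EKO and WT were 257 ± 29.5 and 191 ± 10.6 CPM from 6500 to below 7000, 423 ± 36.1 and 298 ± 34.6 CPM from 7000 to below 7500, and 422 ± 96.9 and 231 ± 17.8 CPM for 7500 and above (SD, n = 3 each). The widest spread, in the last range of the EKO libraries, accompanied the values of miR-8103, miR-7688-5p and miR-7658-5p, all highest in EKO replicate 1.

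No late-numbered miRNA passed the test between genotypes, and the 12 most abundant all averaged higher in EKO. edgeR's quasi-likelihood test over all mature references took in 575 of them, 136 of the 305 late-numbered ones among them. The other 169 did not pass the low-count filter. None of the 136 was called at an adjusted p under 0.05 (0% of all tested were), and the smallest adjusted p was 0.0766. At an unadjusted p under 0.05, 10 of the 136 (7.35%) were higher in EKO, against 8.35% of all tested references, and 9 (6.62%) were lower, against 13.0%. Groups that did not overlap were found with EKO higher for 20 (14.7%), against 11.8% of all, and with EKO lower for 11 (8.09%), against 17.7%. DESeq2 called 7 higher and 8 lower, against 7.48% and 8.52% of all tested, and limma-voom 1 higher and 4 lower, against 1.57% and 4.0%. All those called lower had no EKO read and passed the low-count filter through WT alone. With edgeR and no filter on low counts, 5 were called higher, against 2.64% of the 910 references tested, and 0 lower, against 3.08%.

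The fitted median log2 fold change (EKO over WT) was 0.11 over the 136, against -0.16 over all 575, and 73 of the 136 had values above 0. This median was -0.27 under limma-voom and -0.27 in edgeR without a filter on low counts, so its sign rests on the setting. Over the 12 with at least 10 CPM the median was 0.91, with 12 of 12 above 0, against -0.06 over the 251 references at that level, of which 114 were above 0. References of intermediate number with at least 10 CPM also leaned towards EKO, with 21 of 28 (75%) above 0 and a median of 0.22. This limit uses the mean of both genotypes and so favours a miRNA that is high in 1 of them. Of the 8 that reached 10 CPM in WT alone, 7 averaged higher in EKO, and the exception was miR-7219-3p. It stood at 1.70, 6.81 and 10.2 CPM in EKO and 8.17, 12.0 and 12.1 CPM in WT, with overlapping groups.

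With the values given above, miR-7658-5p had the largest fitted difference of the 12, a log2 fold change of 1.89 ± 0.44 (SE; edgeR adjusted p = 0.0766). The fit gave 1.43 ± 0.34 for miR-8103 and 1.40 ± 0.35 for miR-6945-3p (both edgeR adjusted p = 0.0786). For miR-7043-3p it was 0.73 ± 0.18 (edgeR adjusted p = 0.0786) and for miR-7688-5p 0.92 ± 0.26 (edgeR adjusted p = 0.0851). All 5 had every EKO library above every WT library, and all missed the threshold. When only references averaging at least 10 CPM were tested, edgeR called these 5 and miR-6979-3p higher in EKO, 6 of 12, against 10.8% of the 251 tested, and none lower, against 12.7%. Of these, miR-7658-5p and miR-6945-3p reached that level only through the EKO libraries, so the count is partly set by the limit and supports nothing about the group. The adjusted p of these 6 then ran from 0.0231 to 0.0352 with edgeR, and over all alternatives from 0.000312 to 0.285.

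The other abundant miRNAs gave smaller or less certain differences. For miR-6956-3p the log2 fold change was 0.98 ± 0.42 (edgeR adjusted p = 0.222) and for miR-6952-3p 0.90 ± 0.60 (edgeR adjusted p = 0.505). The values were 0.35 for miR-7679-5p, 0.29 for miR-6988-3p, 0.14 for miR-8114 and 0.12 for miR-7091-3p, each smaller than its SE, which ran from 0.28 to 0.49. The sign for miR-8114 turned, to -0.26 without EKO replicate 3 and to -0.02 without WT replicate 2. For these 4 the fit does not settle the sign.

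**Figure D4:**
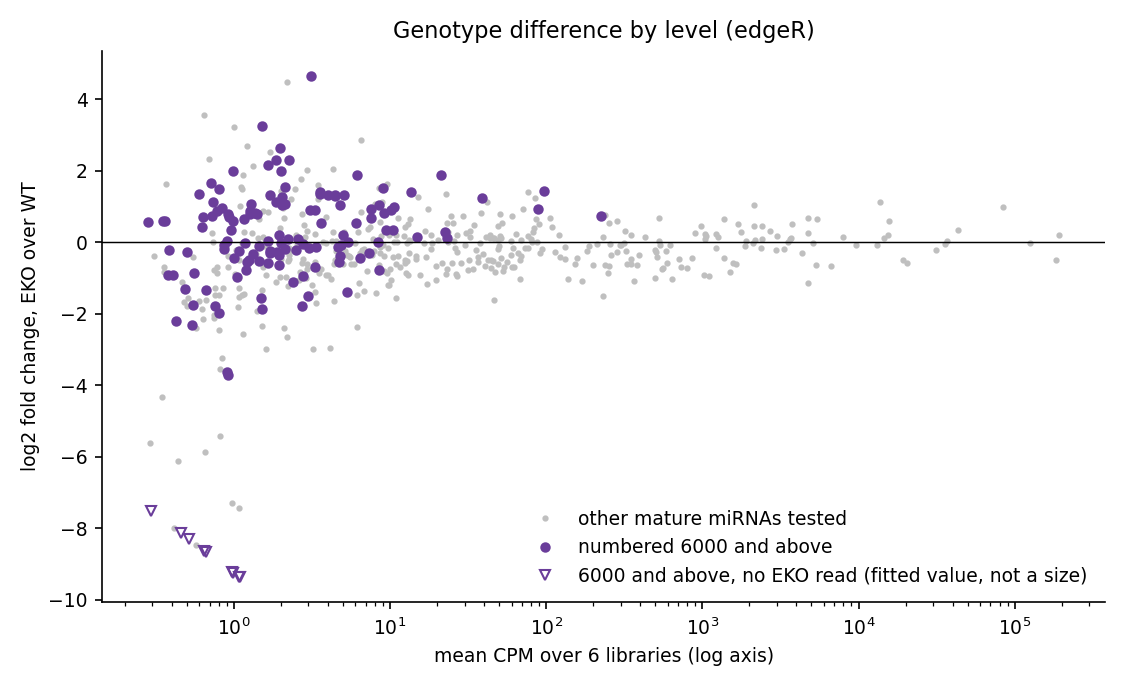
Fitted log2 fold change (EKO over WT, y axis) against mean level (x axis, CPM on a log axis) for the tested references, with the late-numbered ones in purple over all others in grey; open triangles had no EKO read, and their height is no measure of size. The 12 late-numbered miRNAs at or above 10 CPM all lie above 0, while below that level they lie on both sides with wide scatter.

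Summed levels of several marker lists moved with genotype, and their part in these differences was not tested. The macrophage and myeloid list held both arms of miR-223, miR-142a and miR-511, with miR-21a-5p and miR-146a-5p. Its 8 miRNAs all had reads and summed to 143031 to 171234 CPM in EKO and 215757 to 228584 CPM in WT. This sum follows its most abundant members, which were not read singly, so it does not show a fall in each. The hepatocyte miRNA miR-122-5p stood at 101 to 154 CPM in EKO and 47.2 to 58.8 CPM in WT, and the 4 stromal miRNAs, all with reads, summed to 75.3 to 118 CPM and 168 to 216 CPM. Lymphoid miRNAs (4 of 4 with reads) summed to 5179 to 6174 CPM in EKO and 5000 to 5197 CPM in WT. Erythroid miRNAs (2 of 3, miR-144-3p at 0) summed to 117 to 145 and 127 to 159.8 CPM, and epithelial ones (5 of 5) to 109 to 172 and 137 to 156 CPM. Of the muscle and neuron miRNAs 1 of 3 had reads (miR-133a-3p and miR-124-3p at 0), at 2.80 to 25.1 CPM in EKO and 0.653 to 3.23 CPM in WT. In bulk RNA, fewer cells of a type and less RNA per cell cannot be told apart. The fold change of references below 6000 with at least 10 CPM also moved with GC content, with a Spearman correlation across 212 references, which share their libraries, of 0.27. Among the 12 late-numbered miRNAs at that level only 9 (75%) had a sequence, too few for that check, and a fit with the GC trend removed treated the other 3 as of median GC. Over the 117 tested late-numbered miRNAs with a sequence, whatever their level, the Spearman correlation was -0.009. It was 0.17 over the 485 tested references with a sequence.

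A small group had reads in every WT library and none in EKO. They numbered 10 of 305 (3.28%), against 1.54% of all mature references, and the reverse pattern was found for 0. How many of all references had the reverse pattern was not counted. Detection over all 911 references was itself lower in EKO, at 570.3 ± 24.7 against 681 ± 16.1 in WT (SD, n = 3 each). The reads of these 10 were few and came from few distinct sequences. The sequences of those named here with the most reads follow, again from RefSeq GRCm38.p6 with the seed in capitals.
miR-7674-5p: uGAGGUGUgggcagcaugaggacu
miR-7683-5p: uUCCGUGUuucgucugaccacu
miR-6937-5p: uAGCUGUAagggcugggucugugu
miR-6909-5p: cAGGGGGGcuggaaugggcacu
miR-7655-3p: uUUAUGACgcuccgugggccug
The sixth is miR-7682-3p. The hairpins of miR-6937 and miR-6909 reach the 3′ end of an intron of Adi1, a methionine-salvage enzyme gene, and of Plpp2, a lipid phosphatase gene. Those of miR-7655 and miR-7683 are inside introns of Mllt10, a chromatin cofactor gene, and Slamf7, an immune cell receptor gene.

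The WT libraries held 76, 67 and 116 reads of miR-7674-5p (1.98, 1.62 and 2.84 CPM). For miR-6937-5p they held 114, 49 and 74 reads (2.97, 1.19 and 1.81 CPM). For miR-6909-5p they held 38, 80 and 119 reads (0.99, 1.94 and 2.91 CPM). Against a floor of 3 reads in each EKO library, the WT mean stood 26.4-fold, 24.5-fold and 24.0-fold above it in turn, each with an edgeR adjusted p of 0.0786. The floor covers counting error only, and reads are not independent molecules, so these ratios do not bound the difference between genotypes.

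The level of miR-7655-3p was the most even, with 52, 57 and 51 reads (1.35, 1.38 and 1.25 CPM), a WT mean 16.3-fold above the EKO floor (edgeR adjusted p = 0.0851). That of miR-7682-3p was uneven, with 20, 73 and 176 reads (0.52, 1.77 and 4.30 CPM), a WT mean 27.1-fold above the EKO floor (edgeR adjusted p = 0.0822). The 172, 61 and 2 reads of miR-7683-5p were uneven, and it did not pass the low-count filter, so it was not tested. None of these passed edgeR's threshold. All were picked for having no EKO read, and those tested passed the low-count filter through WT alone. Their p-values thus restate that choice and support nothing further. By contrast, miR-7677-3p had 263, 135 and 260 reads in EKO and 28, 0 and 0 in WT (edgeR adjusted p = 0.205). It was singled out after its values were seen.

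Reads lay more often on the 3p arm. Among the 305, 147 were named 3p, 131 5p and 27 had no arm. Of 85 hairpins whose arms together averaged at least 1 CPM, 56 (65.9%) had more 3p reads, against 21 of 43 (48.8%) of intermediate number and 88 of 201 (43.8%) below 1000. Among the late-numbered ones at an intron end it was 31 of 46 (67.4%), among those inside introns 6 of 14 (42.9%), among those overlapping an exon 4 of 5 (80.0%), among those with no same-strand gene 1 of 2 and among those not placed 14 of 18 (77.8%). At least 90% of the reads lay on 1 arm in 55 of the 85.

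The whole-intron hairpin miR-7091 kept a minority of 5p reads in every library, 14.9%, 16.7% and 11.6% in EKO and 17.1%, 18.1% and 24.1% in WT. The exon-overlapping miR-7658 was nearly all 5p, from 93.8% to 100% over the 6 libraries. In miR-7679 the 5p arm held 88.2%, 92.8% and 77.4% in EKO and 75.6%, 90.5% and 81.8% in WT. The groups overlapped for the last 2, whereas all 3 EKO shares of miR-7091 lay below all 3 WT shares by a small margin. Arm shares were not tested, and how many of all hairpins split this way was not counted.

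Arm shares were less steady in thinner hairpins. For miR-6952 the 5p share ran from 0% to 26.0% in EKO and from 1.87% to 16.4% in WT. For miR-6989 it was 0% in all libraries but WT replicate 2, at 8.46%. For miR-7219 it was 59.9%, 0% and 0% in EKO and 7.37%, 1.19% and 2.17% in WT, so that 1 EKO library alone had more 5p than 3p reads.

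At intron ends the 3p sums were apart between genotypes through miR-7043-3p, and the 5p sums overlapped. The 3p miRNAs of hairpins at an intron end summed to 474, 446 and 409 CPM in EKO and 350, 301 and 283 CPM in WT (443 ± 32.7 against 311 ± 34.7 CPM, SD, n = 3 each). The 5p miRNAs of the same class summed to 69.3, 76.5 and 66.3 CPM in EKO and 80.6, 80.0 and 66.5 CPM in WT (70.7 ± 5.24 against 75.7 ± 8.0 CPM, SD, n = 3 each). The 3p sums did not overlap between genotypes and the 5p sums did, and the difference between the arms was not tested. The 3p sum holds miR-7043-3p, which alone gave 276 ± 29.8 CPM in EKO and 170 ± 24.4 CPM in WT (SD, n = 3 each). It made up 259 of the 409 CPM in EKO replicate 3 and 191 of the 350 CPM in WT replicate 1. Without miR-7043-3p the 3p sums of the genotypes overlap.

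Outside intron ends the sums were also apart. miRNAs inside introns summed to 280, 157 and 196 CPM in EKO and 119, 103 and 104 CPM in WT, miR-8103 among them. Those overlapping exons summed to 104, 73.8 and 79.4 CPM in EKO and 49.7, 45.2 and 50.9 CPM in WT. Those with no same-strand gene summed to 160.02, 144 and 98.7 CPM in EKO and 74.0, 72.1 and 68.1 CPM in WT, most of it miR-7688-5p. Hairpins not placed gave 179.6, 159.9 and 150.3 CPM in EKO and 116, 111 and 100.5 CPM in WT, miR-6979-3p among them. Without miR-6979-3p the sums of hairpins not placed overlap between genotypes.

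**Figure D5:**
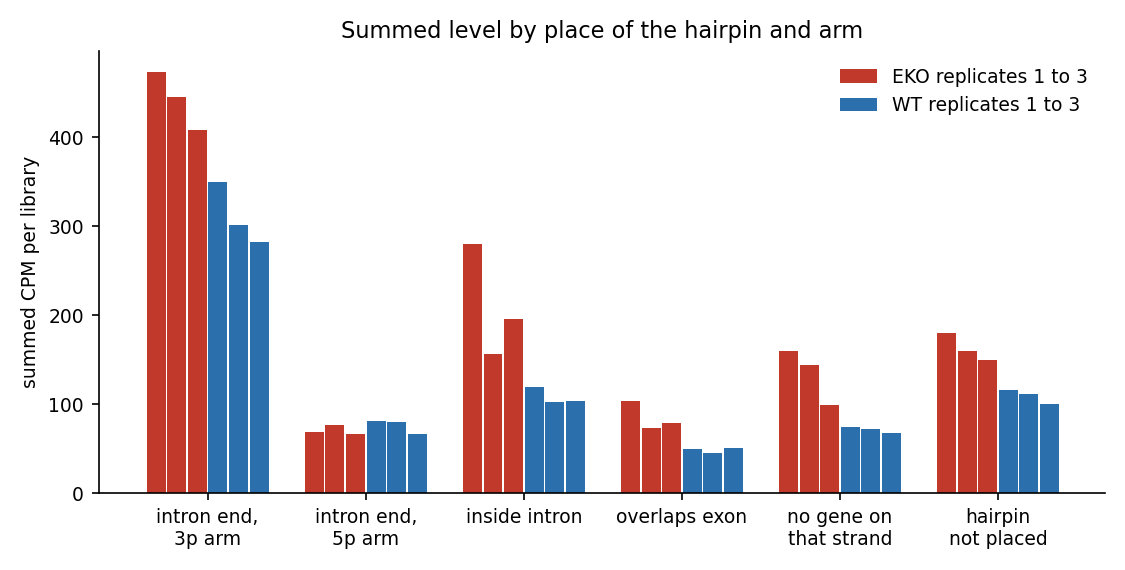
Summed level of late-numbered miRNAs (CPM) by the place of their hairpin, 1 bar per library (EKO red, WT blue). The groups are apart for 3p miRNAs at intron ends (409 to 474 against 283 to 350 CPM) and for the other places. They overlap for 5p miRNAs at intron ends (66.3 to 76.5 against 66.5 to 80.6 CPM). The gap for 3p miRNAs at intron ends rests on miR-7043-3p, and that for hairpins not placed on miR-6979-3p.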

How the data were processed

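Small RNA libraries of 3 EKO and 3 WT macrophage cultures, made with an NEB small RNA kit from total RNA, were compared. Per the file headers, the authors deposited for each library a total read count and a multimap-adjusted, estimated count per miRNA, which divides reads that fit several references; no late-numbered miRNA had divided reads. The genome build was mm9, per the submitters' processing notes; the aligner is not given in the sources used here. Estimated counts were rounded, 73 stem-loop references were left out, and CPM was taken over all mature references. Genotypes were compared with edgeR 4.0.16 (R 4.3.3; TMM, filterByExpr, quasi-likelihood test) over all references, with Benjamini-Hochberg adjustment and a threshold of 0.05. The alternatives were DESeq2 1.42.0, limma 3.58.1 (voom), other scalings and filters, total read counts, the replicate number as a block, and each library left out in turn. The fits were tested on simulated data. Hairpins and sequences were matched by name to RefSeq GRCm38.p6 (264 of 305), and placed in GENCODE M21 introns. Coordinates are from that build, not mm9.

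The libraries are called biological replicates, without the animals behind each, so p-values measure the spread between these libraries. No 2 libraries of a genotype agreed within counting noise (chi-square per degree of freedom from 210.7 to 1743). The miRNAs named were the 12 most abundant, the 5 with the smallest p in each direction, up to 6 found in 1 genotype alone and the 6 most abundant hairpins with both arms. The members and lists were chosen with earlier results of these data known.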

Additional observations from a re-analysis of the deposited data

How the results depend on the processing

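Counts of calls and the median depended on the settings; the cause was not tested. Late-numbered miRNAs called higher in EKO numbered 7 with DESeq2 and 1 with limma-voom (43 and 9 of all 575 references). They numbered 5 without a low-count filter (24 of all 910) and 6 among references averaging at least 10 CPM (27 of all 251). Chosen after seeing the data, the same 10 CPM limit gave 5 with limma-voom, 7 with DESeq2 and 6 with the GC trend removed. Of all 251 references, these fits called 26, 44 and 29 higher in turn, and 30, 40 and 15 lower. With the GC trend removed, the 3 of 12 without a sequence were set to the median GC, so that value does not settle the part of GC. In each of these fits miR-7658-5p and miR-6945-3p, and miR-6956-3p where DESeq2 called it, reached 10 CPM only through EKO. Late-numbered miRNAs called lower numbered 8 with DESeq2 and 4 with limma-voom (49 and 23 of all 575 references), and 0 in each other setting. Leaving out 1 library gave 0 to 3 called higher, the 3 without EKO replicate 3, and 0 to 0 called lower. Without EKO replicate 3, 16 of all 634 references tested were called higher and 29 lower. Other scalings, total read counts and the GC trend removed over all tested references gave 0. DESeq2 gave no adjusted p for 8 of the 136.

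The median log2 fold change was 0.19 with DESeq2, 0.19 with its size factors, -0.27 with limma-voom, -0.27 without a filter, 0.93 at 10 CPM or more (0.83 with limma-voom, 0.99 with DESeq2, 1.01 with the GC trend removed) and 0.19 with the GC trend removed alone, also added later; leaving out 1 library gave -0.016 to 0.44. For miR-8114 the log2 fold change was -0.26 without EKO replicate 3 and -0.02 without WT replicate 2, with a range of -0.26 to 0.32 without 1 library.

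At 10 reads or more the detected number differed by -46 (EKO minus WT), and without 1 library by -56.8 to -50.7. The summed level differed by 138 CPM without the 3 most abundant, an alternative added after seeing the data, and by 304 to 438 CPM without 1 library. With the replicate block, 5 were called higher and 0 lower (26 and 36 of all 575 references), with a median of -0.24. The correlation of same-numbered libraries was -0.10 for replicate 1, -0.04 for 2 and -0.02 for 3. The best match of each EKO library had another number, so the numbers were not taken as pairs. The 169 miRNAs under the low-count filter were not tested.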
